A study of Mus musculus with 1279 samples.

Results

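Secreted Wnt antagonists are proteins that cells release to hold back Wnt signalling. The genes described here were the 10 members Wif1, Dkk2, Dkk3, Sfrp1, Sfrp2, Sfrp4, Sfrp5, Frzb, Sost and Sostdc1, chosen by name out of 46517 genes in a read count table of single mouse heart cells. The study sorted stromal cells, sequenced them with Smart-seq2, a full-length method run in plates without molecular identifiers, and grouped them into 8 clusters. Clusters 1 to 5 were fibroblasts (926 cells), with cluster 1 held by the study to be likely valve interstitial cells. Clusters 6 to 8 were taken as mural cells (353 cells), the smooth muscle cells and pericytes that wrap vessels. Within these, cluster 6 was taken as the Sost and Cbr2 cells that the study held to be likely smooth muscle of large vessels, cluster 7 as vascular smooth muscle and cluster 8 as pericytes.

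All mice were males of 10 to 20 weeks on a C57Bl6/J background. C57BL6 mice carried no reporter, and their 581 cells were sorted with antibodies to PDGF receptors. PdgfrbGFP mice, with the transgene Tg(Pdgfrb-eGFP), gave 364 cells. Cspg4dsRED mice carried a Cspg4-DsRed transgene and gave 12.7% of all cells, and Acta2GFP mice carried an Acta2-GFP transgene and gave 13.4%. Each reporter marks cells that use the regulatory sequence of the named gene, so each strain enriched its own mixture of stromal cells. Cells positive for the endothelial protein CD31 were gated out in every strain, and elastase was added to the dissociation for Acta2GFP. Each reporter strain came from 1 plate and C57BL6 from 3 plates, so strain, sort and plate cannot be told apart. The labels name no animal, so the strain was the replicate, and p-values measure the spread between strains. Counts were summed over the cells of a strain and scaled to counts per 1e6 counts (CPM) wherever at least 3 cells were present. In such sums, fewer cells with a transcript and less of it per cell cannot be told apart.

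Wnt proteins bind Frizzled receptors together with the co-receptors Lrp5 and Lrp6, which stabilises beta-catenin and switches on TCF/LEF target genes. Wif1 and the secreted Frizzled-related proteins Sfrp1, Sfrp2, Sfrp4, Sfrp5 and Frzb (also called Sfrp3) bind the Wnt ligand itself. Dkk2, Sost (sclerostin) and Sostdc1 instead occupy the Lrp co-receptors, while Dkk3 is a divergent Dickkopf family member whose action on Wnt signalling is less settled. In the heart, Wnt signalling is known for its part in valve formation and in the response of fibroblasts to injury.

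The cells held 46268 to 1302397 counts, with a median of 274504, and 1626 to 9383 detected genes. The summed level of 5 fibroblast markers (Pdgfra, Dcn, Lum, Col1a1, Col1a2) was 10590 to 14489 CPM over the strains in clusters 1 to 5. It was 309 to 3334 CPM in clusters 7 and 8, where the mural markers Rgs5, Notch3, Des, Mcam and Cspg4 summed to 5239 to 11764 CPM. Cluster 6 carried smooth muscle markers (Acta2, Tagln, Myh11, Cnn1) at 9946 to 13384 CPM, but its 3 C57BL6 cells also held fibroblast markers at 12491 CPM. These stood at 3223 CPM in its 33 Cspg4dsRED cells and at 3108 CPM in its 3 Acta2GFP cells. The mural markers summed to 781, 2446 and 1852 CPM in cluster 6 of C57BL6, Cspg4dsRED and Acta2GFP. These sums lay below clusters 7 and 8 and below the fibroblast markers of cluster 6. Large-vessel smooth muscle markers named by the study (5 genes) summed to 2797, 5857 and 3620 CPM in the same order. In all other clusters they reached at most 1330 CPM, in cluster 8. Smooth muscle markers summed to 10670 to 15717 CPM in cluster 7. The study's text gives heart cluster 6 no identity, so its place among mural cells was assigned here. Clusters had been formed by the authors from the same counts, so a difference between clusters describes the clusters and is no independent evidence for them.

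Promoter sequence is shown for the members with the narrowest range of clusters, Wif1 and Sost, and for Sfrp2, whose fibroblast level set 1 strain apart. RefSeq promoter windows on GRCm38.p6 were at hand for Wif1, Dkk2, Sfrp2, Sfrp5, Frzb and Sost, but not for Dkk3, Sfrp1, Sfrp4 or Sostdc1. The stretches are read 5′ to 3′ on the strand of the gene and end at the base before the gene start. They cover chr10:121033754-121033959 (plus strand), chr3:83766071-83766320 (plus strand, 250 bases) and chr11:101967016-101967265 (minus strand, 250 bases). Capitals mark the only match found, TATAAA read on the opposite strand of the Wif1 stretch.
Wif1: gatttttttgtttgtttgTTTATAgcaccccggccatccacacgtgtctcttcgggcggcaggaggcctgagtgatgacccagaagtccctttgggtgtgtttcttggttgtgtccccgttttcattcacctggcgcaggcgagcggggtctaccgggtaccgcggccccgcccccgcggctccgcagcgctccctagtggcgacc
Sfrp2: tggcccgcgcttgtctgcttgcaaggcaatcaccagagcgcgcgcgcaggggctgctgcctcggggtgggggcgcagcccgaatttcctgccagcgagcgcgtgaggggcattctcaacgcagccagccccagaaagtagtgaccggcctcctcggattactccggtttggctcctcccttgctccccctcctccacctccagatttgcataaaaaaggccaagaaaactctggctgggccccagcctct
Sost: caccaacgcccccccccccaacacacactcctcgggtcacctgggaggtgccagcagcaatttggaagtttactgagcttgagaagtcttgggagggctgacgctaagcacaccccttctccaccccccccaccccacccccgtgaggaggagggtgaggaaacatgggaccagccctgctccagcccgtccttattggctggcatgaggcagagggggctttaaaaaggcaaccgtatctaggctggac
G and C made up 61.7% of the Wif1, 63.6% of the Sfrp2 and 61.2% of the Sost stretch, with 17, 16 and 6 CG pairs. Both strands were searched for TATAAA, for the E-box CAGCTG (held by 4271 promoters), for the CArG box bound by serum response factor, and for the TCF/LEF spellings CTTTGAT (held by 3.21% of promoters), CTTTGAA (4.46%), CTTTGTT (5.03%) and CTTTGTA (3.20%). No TCF/LEF spelling, E-box or CArG box lay in these windows. Of 32851 promoters of 250 bases, 14.8% held at least 1 TCF/LEF spelling, 12.4% held TATAAA and 1.47% held a CArG box.

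Wif1, which binds Wnt ligands outside the cell, was a gene of cluster 1. The gene lies at chr10:121033960-121100650 on GRCm38. In cluster 1 it stood at 1265 CPM in the 19 C57BL6 cells, at 1882 in the 22 PdgfrbGFP cells, at 1491 in the 3 Cspg4dsRED cells and at 932 in the 26 Acta2GFP cells. The mean was 1392 ± 399 CPM (SD, n = 4 strains). No strain came near this in another cluster, where the highest sum was 70.7 CPM, in the 3 Acta2GFP cells of cluster 6. The study itself named Wif1 for these cells, so the contrast is described without a test. Not every cluster 1 cell carried it. More than 5 reads were present in 49 of 70 cells, and single cells ran from 0 to 6488 CPM. By strain these were 11 of 19 cells in C57BL6, 18 of 22 in PdgfrbGFP, 2 of 3 in Cspg4dsRED and 18 of 26 in Acta2GFP.

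Low Wif1 counts were also scattered through other clusters, in 28.6% of the 856 cells of clusters 2 to 5 and 39.8% of the 314 cells of clusters 7 and 8. More than 5 reads were seen in 2.10% and 8.60% of these cells, and none reached 100 CPM. On the Acta2GFP plate, 93.1% of the 72 wells outside cluster 1 that shared a row or column with a well of at least 1000 Wif1 reads held a count, against 32.9% of the 73 wells that shared neither. On the PdgfrbGFP plate these shares were 90.1% and 23.04%, and on the Cspg4dsRED plate 16.7% and 7.04%. They were 21 of 28 and 1 of 220 wells on 1 C57BL6 plate, and 58.3% and 19.1% on another. Libraries of a plate were pooled and read with dual indexes, and the part of this in the low counts was not tested. In cluster 6, 7 of 39 cells reached 100 CPM, with up to 426 CPM.

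Dkk3 was highest in cluster 1 and high again in clusters 6, 3 and 4. It is located at chr7:112116017-112159057 on the minus strand. Cluster 1 held 2043 CPM for C57BL6, 3637 for PdgfrbGFP, 4059 for Cspg4dsRED and 3285 for Acta2GFP, a mean of 3256 ± 868 CPM (SD, n = 4 strains). All 70 cells had a count. Cluster 6 followed with 905 CPM for C57BL6, 1160 for Cspg4dsRED and 694 for Acta2GFP, and again every one of its 39 cells had a count. Cluster 3 held 513 CPM for C57BL6, 789 for PdgfrbGFP and 882 for Acta2GFP, which overlapped with cluster 6. Cluster 4 came next at 250 to 510 CPM.
The remaining clusters had lower means. Dkk3 ranged from 50.3 to 322 CPM across strains of cluster 8, from 23.7 to 148.6 in cluster 2, from 57.6 to 86.4 in cluster 5 and from 10.2 to 51.02 in cluster 7. Cluster 8 overlapped with cluster 4 through its Acta2GFP sum, and clusters 8, 2 and 5 overlapped with each other. Low Dkk3 counts also followed the plate layout in part. On the PdgfrbGFP plate 94.5% of wells outside cluster 1 that shared a row or column with a Dkk3-rich cluster 1 well held a count, against 44.2% of the others. The shares were 94.4% and 50.7% for Cspg4dsRED, 83.8% and 77.6% on 1 C57BL6 plate, 21 of 28 wells and 59.1% on another, and near 100% on both sides for Acta2GFP. With nearly every Acta2GFP well holding a count, the share cannot show the layout there. The median on that plate was 15 Dkk3 reads in wells that shared a row or column, against 4.5 in the 12 others. Dkk3 was thus uneven within both classes, higher in clusters 1, 3 and 4 than in clusters 2 and 5 among fibroblasts, and higher in cluster 6 than in any sum of clusters 7 and 8 among mural cells.

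Frzb, a Frizzled-related Wnt-binding protein known from developing cartilage, graded down from cluster 1. It lies at chr2:80411970-80447625 on the minus strand. Cluster 1 held 485 CPM for C57BL6, 1477 for PdgfrbGFP, 743 for Cspg4dsRED and 964 for Acta2GFP. Cluster 2 held 226.9, 620, 202.9 and 498 CPM in the same order, so these clusters overlapped across strains although cluster 1 was higher within each strain. Clusters 4 and 5 held 119.03 to 296 CPM. In cluster 3 the level was 220 CPM in C57BL6 and 137.6 in Acta2GFP but 5.09 in the 7 PdgfrbGFP cells. Clusters 7 and 8 stayed at or below 9.44 CPM. In cluster 6 Frzb was 3.92 CPM for C57BL6 and 9.72 for Acta2GFP but 95.9 for Cspg4dsRED, where 4 of 33 cells held more than 5 reads and the highest reached 2218 CPM.

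Sfrp1, at chr8:23411502-23449632, was a fibroblast gene across all 5 fibroblast clusters, and its order among them was not that of Frzb or Dkk3. The highest mean was in cluster 5, with 462 CPM in C57BL6 and 320 in PdgfrbGFP. The C57BL6 value joined 338 CPM on 1 plate and 620 CPM on another, and all 5 fibroblast clusters were higher on the latter. Cluster 3 ranged from 209.4 to 389 CPM, cluster 4 from 130.5 to 243.7 and cluster 2 from 82.9 to 191.7, so that neighbours overlapped. In cluster 1 the level was 243.05 CPM in C57BL6, 293 in PdgfrbGFP and 79.4 in Acta2GFP, but 0 of 810367 counts in the 3 Cspg4dsRED cells, which allows up to 3.70 CPM. All mural sums lay between 0.600 and 18.7 CPM.

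Sfrp2 was found in fibroblasts and in part of cluster 6, but fibroblasts of 1 strain held almost none. The gene lies at chr3:83766321-83774316, and the antisense gene Gm26771 overlaps its 3′ end. Strand was not kept by the library method, so reads of the overlap cannot be told apart and the level of Sfrp2 is uncertain to that extent. Sfrp2 ran from 60.8 to 653 CPM in the fibroblast clusters of C57BL6, PdgfrbGFP and Acta2GFP. For Cspg4dsRED it was 2.47 CPM in cluster 1, 1.23 in cluster 2 and 0.420 in cluster 4. Over all fibroblasts of a strain the level was 229.2 CPM for C57BL6 (544 cells), 227.03 for PdgfrbGFP, 258.5 for Acta2GFP (120 cells) and 0.853 for Cspg4dsRED (26 cells, 9 counts in all). No Cspg4dsRED fibroblast held more than 5 Sfrp2 reads.
The same Cspg4dsRED plate held Sfrp2 at 384 CPM in the 33 cells of cluster 6, where 19 cells had more than 5 reads. Among 1718 genes with at least 100 CPM in the fibroblasts of the other 3 strains, Sfrp2 was the lowest in Cspg4dsRED, with a log2 ratio of −7.01 (pseudocount 1 CPM) against a median of −0.09 for all of these genes. This comparison was chosen after the values were seen. The 5 fibroblast markers summed to 11069 CPM in those 26 cells, against 11315 to 13700 CPM in the other strains. Gm26771 moved with Sfrp2, at 42.8 to 50.1 CPM in fibroblasts of the other 3 strains, 0.0948 in Cspg4dsRED fibroblasts and 66.3 in Cspg4dsRED cluster 6. Endothelial markers summed to 248.3 CPM in the Cspg4dsRED fibroblasts and to 22.6 to 45.9 CPM in those of the other strains. In Cspg4dsRED cluster 1 they summed to 50.6 CPM, and no strain exceeded 11.1 CPM in cluster 2 or 98.9 CPM in cluster 4. The high Cspg4dsRED sum thus came from its 1 cell each in clusters 3 and 5. The part of endothelial markers was not tested. With 1 strain on 1 plate, the sort, the transgene and the animal cannot be told apart.

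**Figure D1:**
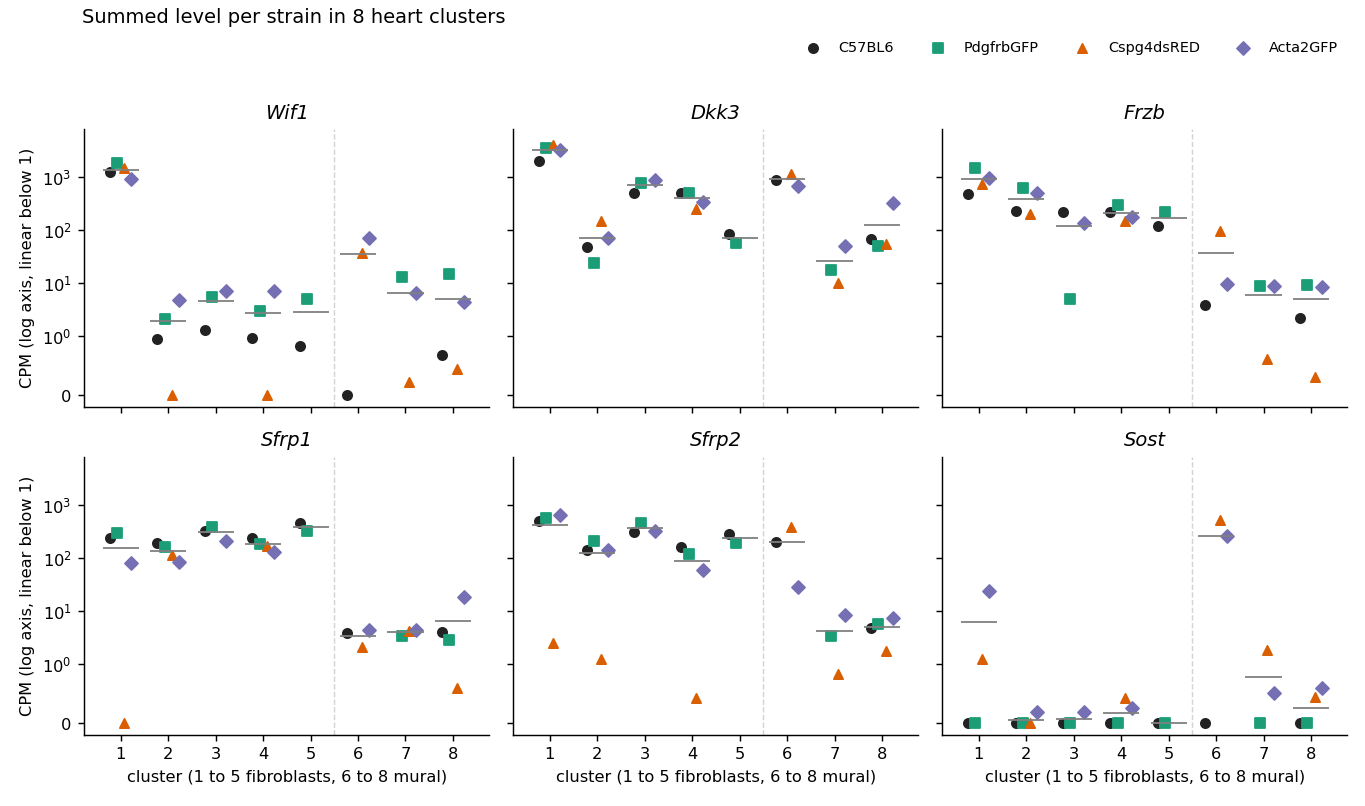
Level of 6 members in each cluster on a log axis in CPM (linear below 1), 1 point per strain with at least 3 cells and a grey line at the mean over strains. Wif1 stands at 932 to 1882 CPM in cluster 1 and at most at 70.7 CPM elsewhere, Dkk3 is high in clusters 1, 3, 4 and 6, and the Cspg4dsRED triangles of Sfrp2 lie at or below 2.47 CPM in clusters 1, 2 and 4.

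Sost, which encodes sclerostin and is best known from osteocytes, was a gene of cluster 6. It is located at chr11:101962458-101967015 on the minus strand. In cluster 6 it stood at 527 CPM in Cspg4dsRED (33 cells), at 261.3 in Acta2GFP (3 cells) and at 0 of 1020801 counts in C57BL6 (3 cells), which allows up to 2.94 CPM. The C57BL6 cells without it were also those with the high fibroblast marker level given above. Of the 39 cells of cluster 6, 24 held more than 5 Sost reads (61.5%). These were 22 of 33 in Cspg4dsRED, 2 of 3 in Acta2GFP and 0 of 3 in C57BL6. Outside cluster 6 more than 5 reads were seen in 3 cells, 1 each in clusters 1, 3 and 7, and the cluster 1 cell, from Acta2GFP, reached 768 CPM. No count was found in any C57BL6 or PdgfrbGFP cell. The study named Sost for these cells, so no test is given.

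Sfrp4, another Wnt-binding Frizzled-related protein, was sparse. A count was found in 85 of 1279 cells, and outside Acta2GFP no sum exceeded 12.6 CPM. The highest sum was 83.6 CPM in the 15 Acta2GFP cells of cluster 8. Dkk2, Sfrp5 and Sostdc1 were close to absent, with 73, 14 and 12 reads in the whole table, spread over 14, 7 and 12 cells. A single PdgfrbGFP fibroblast held Dkk2 at 299 CPM.

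To set genes side by side, CPM was divided by exon length in kilobases (RPKM). The 10 members summed to a mean over strains of 2065 RPKM in cluster 1. This compared with 526 RPKM in cluster 6, 501 in cluster 3, 278.9 in cluster 5, 269.8 in cluster 4 and 231.2 in cluster 2. Clusters 8 and 7 held 50.3 and 16.04 RPKM, and in cluster 8 Acta2GFP stood at 128.9 RPKM against 20.3 to 27.3 RPKM in the other strains. These means cover different strains, and within a strain the order could turn. Cluster 3 was above cluster 6 in C57BL6 (443 against 365 RPKM) and Acta2GFP (519 against 385 RPKM), and cluster 4 was above cluster 5 in C57BL6 (353 against 302 RPKM) and PdgfrbGFP (343 against 255.7 RPKM). In cluster 1 Dkk3 made up 46.9% of the sum, Wif1 27.8%, Frzb 13.7% and Sfrp2 9.64%. Dkk3 also led in clusters 3 (43.2%) and 4 (44.4%), Frzb led in cluster 2 (51.7%), and Sfrp2 (40.1%) with Sfrp1 (32.1%) led in cluster 5. In cluster 6 the mean was made up of Dkk3 (52.04%), Sost (24.2%) and Sfrp2 (18.1%), but the strains were unlike each other. Sost was at 0 RPKM for C57BL6, 255.02 for Cspg4dsRED and 126.5 for Acta2GFP. Sfrp2 was at 93.7, 178.4 and 13.04 RPKM in the same order. The leading member was the same in every strain of clusters 1 to 6. In cluster 7 it was Wif1 in PdgfrbGFP, at 5.46 RPKM, and Dkk3 in Cspg4dsRED and Acta2GFP.

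**Figure D2:**
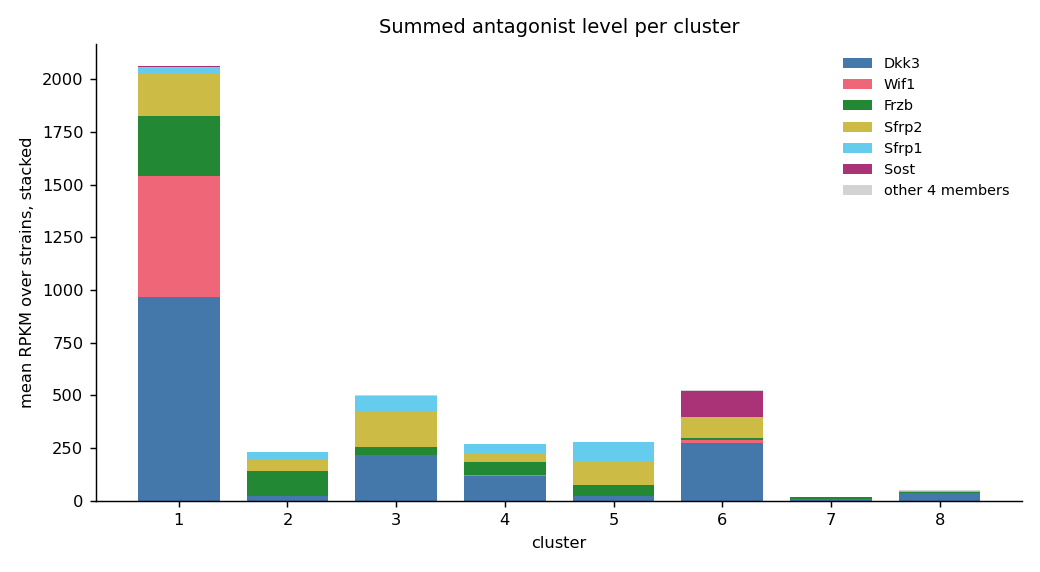
Mean RPKM over strains of the members, stacked per cluster, with the 4 sparse members drawn together. Cluster 1 reaches 2065 RPKM with Dkk3 and Wif1 as the largest parts, and Sost shows in cluster 6.

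Single cells combined several antagonists. With more than 5 reads taken as presence, 54 of 70 cluster 1 cells (77.1%) held at least 3 members, against 9.59% of cluster 2, 35.7% of cluster 3, 21.9% of cluster 4 and 8.90% of cluster 5 cells. In cluster 6 the share was 48.7%, while 66.9% of cluster 7 and 72.4% of cluster 8 cells held none. Median counts per cell were 333384, 345475, 243989 and 167873 in clusters 1, 6, 7 and 8. Counts above 5 reads also followed the plate layout in part for Wif1 and Dkk3. On the Acta2GFP plate, 21 of 72 wells sharing a row or column with a Wif1-rich well held more than 5 Wif1 reads, against 1 of 73 others. PdgfrbGFP went the same way for both genes. No C57BL6 well outside cluster 1 held more than 5 Wif1 reads, the Cspg4dsRED shares for Wif1 were close, and for Dkk3 1 C57BL6 plate went the other way. The part of depth and layout in these shares was not tested. Within cluster 1 the correlation of Wif1 with Dkk3 over cells was 0.45 in C57BL6 (19 cells), −0.07 in PdgfrbGFP (22 cells) and 0.57 in Acta2GFP (26 cells). The Spearman values were 0.45, 0.21 and 0.49, so the PdgfrbGFP sign depended on the measure. The correlation of Wif1 with Frzb was 0.20, 0.50 and 0.05 (Spearman 0.07, 0.69 and −0.08). In the 33 Cspg4dsRED cells of cluster 6 Sfrp2 and Sost gave −0.16. Unless named Spearman these are Pearson correlations of log2(CPM + 1) over cells that share a strain and differ in depth, and are given as descriptions.

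**Figure D3:**
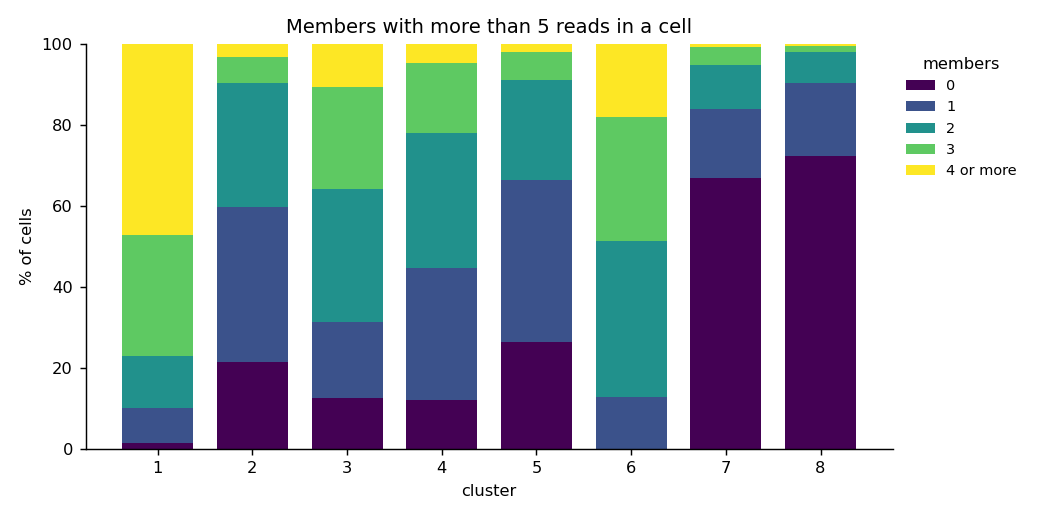
Share of cells in each cluster that held 0, 1, 2, 3 or at least 4 members with more than 5 reads. At least 3 members were present in 77.1% of cluster 1 cells and in 2.04% of cluster 8 cells.

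Fibroblasts as a class were compared with mural cells over the 4 strains. Sfrp1 and Frzb were higher in fibroblasts, and Wif1 was higher through cluster 1. Sfrp1 stood at 310 against 3.94 CPM in C57BL6, 248.4 against 2.92 in PdgfrbGFP, 142.9 against 2.85 in Cspg4dsRED and 111.7 against 9.07 in Acta2GFP. Its log2 fold change was 5.46 ± 0.58 (SE, edgeR quasi-likelihood test, adjusted p = 0.000593). Frzb averaged 331 ± 145.6 CPM in fibroblasts against 12.6 ± 11.8 in mural cells (SD over 4 strains), and its log2 fold change was 4.72 ± 0.72 (edgeR, adjusted p = 0.00453). Both genes were higher in every strain, and the classes did not overlap.
The study named Wif1 for cluster 1, so the class test of Wif1 is no independent support for a class difference. In clusters 2 to 5 no sum exceeded 7.15 CPM. Mural sums were 11.6 to 14.5 CPM in PdgfrbGFP, Cspg4dsRED and Acta2GFP. In C57BL6 these clusters held 0.838 to 1.29 CPM against 0.579 in mural cells. With cluster 1, Wif1 averaged 145.5 ± 80.4 against 9.59 ± 6.16 CPM, a log2 fold change of 3.89 ± 0.85 (edgeR, adjusted p = 0.0239). This call was lost without Acta2GFP, Cspg4dsRED or PdgfrbGFP (edgeR, log2 fold change 3.79, 4.03 and 3.90, adjusted p = 0.121, 0.0847 and 0.0921), and when counts of at most 5 reads in a cell were set to 0 (log2 fold change 4.44, adjusted p = 0.0593). The same setting took Frzb to a log2 fold change of 5.30 with an adjusted p of 0.0805, so both folds were no smaller.
In all, 3 of the 7 members that passed the low-count filter were called, Wif1 among them. Over all 15117 genes, 5.93% were called and 3.47% were called higher. The same 3 did not overlap between the classes, as did 5.46% of genes with a count in the higher direction. Dkk2, Sfrp5 and Sostdc1 did not pass the filter in any comparison. The median log2 fold change of the 7 was 2.19 and that of all genes −0.02.

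Dkk3 and Sfrp2 were not called. Dkk3 was higher in fibroblasts of all 4 strains but the classes overlapped, since Cspg4dsRED mural cells, with their 33 cluster 6 cells, stood at 369 CPM and C57BL6 fibroblasts at 326 CPM. Its log2 fold change was 1.62 ± 0.53 (edgeR, adjusted p = 0.124, and DESeq2, adjusted p = 0.0463). Sfrp2 was higher in fibroblasts of 3 strains, while in Cspg4dsRED it was 0.853 CPM in fibroblasts and 118.03 in mural cells. Its log2 fold change of 2.19 ± 1.26 had an adjusted p of 0.455 in edgeR, and without Cspg4dsRED it became 3.99 ± 0.62 with an adjusted p of 0.0160. Sost averaged 46.5 ± 77.8 CPM in mural cells and 1.56 ± 2.59 in fibroblasts, with counts in the Cspg4dsRED and Acta2GFP strains alone. Sfrp4 averaged 6.32 ± 3.16 CPM in fibroblasts and 9.24 ± 14.3 in mural cells.

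**Figure D4:**
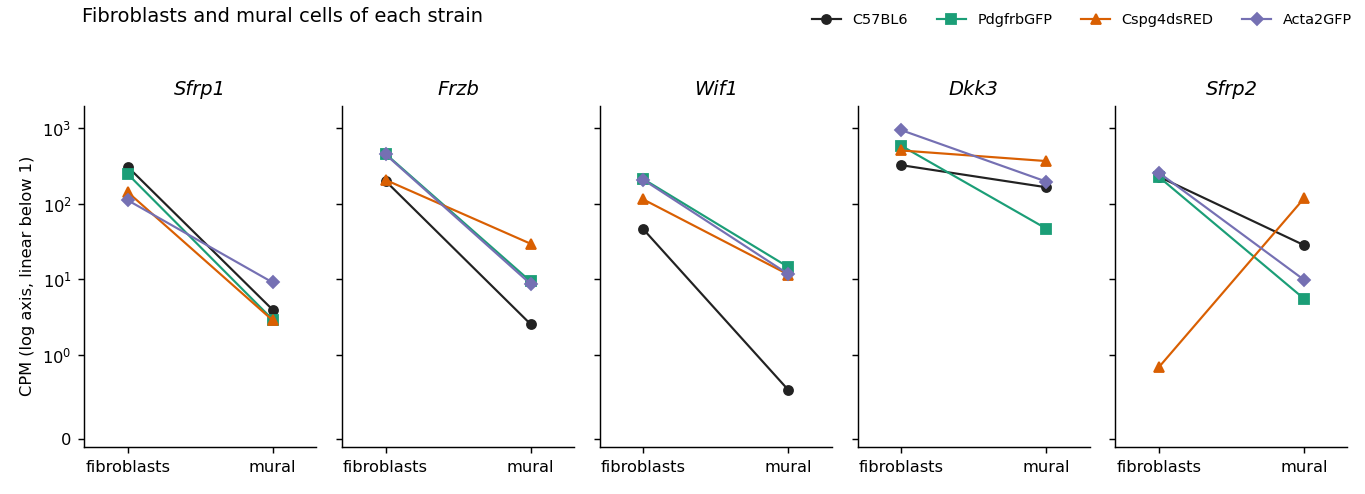
Fibroblast and mural level of 5 members in each strain, in CPM on a log axis (linear below 1), with a line joining the classes of a strain. Sfrp1, Frzb and Wif1 are lower in mural cells of all 4 strains, while the Cspg4dsRED line of Sfrp2 climbs from 0.853 to 118.03 CPM.

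Cluster 1 was compared with the other fibroblasts over the 4 strains. Dkk3 was higher in cluster 1, at 2043 against 262.5 CPM in C57BL6, 3637 against 208.6 in PdgfrbGFP, 4059 against 215.6 in Cspg4dsRED and 3285 against 298 in Acta2GFP. The log2 fold change was 3.73 ± 0.27 (edgeR, adjusted p = 0.000131), and the call held without any 1 of the strains, with adjusted p up to 0.00982. Frzb averaged 917 ± 421 CPM in cluster 1 against 249.1 ± 84.7 in clusters 2 to 5, with a log2 fold change of 1.90 ± 0.41 (edgeR, adjusted p = 0.0491). It was higher in every strain, but the call was lost whichever strain was left out (edgeR, log2 fold change 1.71 to 1.99, adjusted p = 0.131 to 0.193). The call was also lost with no low-count filter (0.0688) and with counts of at most 5 reads set to 0 (0.101).
Apart from Wif1, which the study had named for this cluster, 2 of 5 members tested were called, against 1.33% of 13201 genes called and 0.561% called higher. Both were higher without overlap, as were 1.3% of genes with a count. The sparse Dkk2 was at 0 in every cluster 1 sum and at 0.0125 to 0.730 CPM in clusters 2 to 5, while the zeros allow up to 0.283 to 3.70 CPM. Only PdgfrbGFP, at 0.730 CPM, lay above its limit of 0.372 CPM, and there 1 cell alone held more than 5 reads, so no direction is read from Dkk2 (5.17% of genes lay lower without overlap). With the strain as a block 0.742% of genes were called, both members among them.
Sfrp2 was higher in cluster 1 of C57BL6, PdgfrbGFP and Acta2GFP, with 429 ± 291.3 against 138.2 ± 96.2 CPM over all 4 strains, but was not called (log2 fold change 1.66 ± 1.26, edgeR, adjusted p = 0.895). Without Cspg4dsRED, where it was 2.47 against 0.719 CPM from 2 reads in cluster 1, the log2 fold change was 1.64 ± 0.28 and the adjusted p was 0.0432. Sfrp1 stood at 153.8 ± 137.2 CPM in cluster 1 and 207.7 ± 86.8 in clusters 2 to 5, a log2 fold change of −0.36 ± 0.96 (edgeR, adjusted p near 1).

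Cluster 6 was compared with clusters 7 and 8 in the 3 strains with at least 3 cells on each side. The other side was a different mixture in each strain, with 1 cluster 7 and 33 cluster 8 cells in C57BL6, 75 and 29 in Cspg4dsRED, and 33 and 15 in Acta2GFP. Dkk3 was 905 against 66.99 CPM in C57BL6, 1160 against 22.05 in Cspg4dsRED and 694 against 148.3 in Acta2GFP. Its log2 fold change of 3.63 ± 0.74 did not pass (edgeR, adjusted p = 0.161), and with the strain as a block it was 3.96 ± 0.75 with an adjusted p of 4.9e-05. Without Acta2GFP it had an adjusted p of 0.00623, and in DESeq2 of 0.0294. Markers that the study named for valve interstitial cells (Comp, Thbs1, Fmod, Cyp2e1) summed to 1298 CPM in C57BL6, 177.9 in Cspg4dsRED and 1317 in Acta2GFP in cluster 6, against 19.6 to 642 CPM over the strains of cluster 7 and 35.3 to 187.8 in cluster 8. The part of these and of the fibroblast markers in the Dkk3 values was not tested. Sfrp2 was higher in cluster 6 of all 3 strains, at 201.8 against 5.12 CPM in C57BL6, 384 against 1.10 in Cspg4dsRED and 28.1 against 8.04 in Acta2GFP. In C57BL6 and Acta2GFP this came from 1 of 3 cells each, the only ones with more than 5 reads. Its log2 fold change of 5.46 ± 1.42 did not pass either (edgeR, adjusted p = 0.390, and DESeq2, adjusted p = 0.00121). In the C57BL6 cells this level went with fibroblast markers at the level of fibroblasts.
Apart from Sost, none of 6 members tested was called in edgeR, where 0.033% of 12117 genes were called and 5.74% had an unadjusted p under 0.05. Of the 6, Dkk3 and Sfrp2 had such an unadjusted p, and DESeq2 called both. With the block 0.883% of genes were called, Dkk3 among them. Dkk3 and Sfrp2 did not overlap between the sides, as did 1.87% of genes with a count in the higher direction.
Between clusters 8 and 7 none of 6 members tested was called in edgeR, none had an unadjusted p under 0.05 and none was called by DESeq2, against 0.194% of 11867 genes called. The highest values were in the 15 Acta2GFP cells of cluster 8, with Dkk3 at 322 CPM against 50.3 to 69.1 CPM in the other strains and Sfrp4 at 83.6 CPM against at most 11.5 CPM. Fibroblast markers summed to 3334 CPM in those 15 cells and to 960 to 1370 CPM in cluster 8 of the other strains. Smooth muscle markers summed to 4033 against 201.1 to 1170 CPM. Their part in the Dkk3 and Sfrp4 values was not tested.

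Each of fibroblast clusters 2 to 5 was compared with the other 3 of these clusters. Dkk3 was lower in cluster 2 than in clusters 3 to 5 in all 4 strains, at 72.5 ± 54.1 against 334 ± 98.03 CPM, and its log2 fold change was −2.20 ± 0.47 (edgeR, adjusted p = 0.233). In cluster 3 it was higher than in clusters 2, 4 and 5 in all 3 strains, at 728 ± 191.8 against 201.4 ± 14.3 CPM. There its log2 fold change was 2.02 ± 0.36 (edgeR, adjusted p = 0.183), and with the strain as a block this passed (1.97 ± 0.29, adjusted p = 0.0156). In cluster 4 it was 402 ± 126.2 against 173.3 ± 75.3 CPM (log2 fold change 1.24 ± 0.35, edgeR, adjusted p = 0.499). In cluster 5 it was 72.03 ± 20.4 against 332 ± 15.9 CPM over 2 strains (log2 fold change −2.13 ± 0.26, edgeR, adjusted p near 1). Sfrp4 was also lower in cluster 2 of all 4 strains without overlap, at 0.0752 against 4.79 CPM in C57BL6, 0 against 9.95 in PdgfrbGFP, 0 against 7.40 in Cspg4dsRED and 2.91 against 15.3 in Acta2GFP. The zeros allow up to 0.196 CPM in PdgfrbGFP and 0.738 CPM in the 8 Cspg4dsRED cells, and on the higher side only 2 PdgfrbGFP cells and 1 Cspg4dsRED cell held more than 5 Sfrp4 reads. Its log2 fold change of −3.60 ± 1.67 was larger than that of Dkk3 but did not pass (edgeR, adjusted p near 1). For Dkk3 the sides did not overlap for clusters 2, 3 and 5, as was so in that direction for 1.75%, 1.51% and 15.6% of genes with a count.
DESeq2 called Dkk3 in cluster 2 (adjusted p = 0.00384) and in cluster 5 (adjusted p = 3.29e-09). No gene at all passed in edgeR in these 4 comparisons, which is 0% of 13870, 14803, 14104 and 16214 genes. Unadjusted p-values under 0.05 were found for 4.62%, 6.05%, 4.75% and 3.89% of genes, and DESeq2 called 1.22%, 2.61%, 1.29% and 0.789%.
Frzb was higher in cluster 2 than in clusters 3 to 5 in all 4 strains, at 387 ± 204.98 against 180 ± 45.9 CPM, without passing (log2 fold change 1.15 ± 0.40, edgeR, adjusted p = 0.790). Sfrp1 was higher in cluster 5 than in clusters 2 to 4 of both strains, at 391 ± 100.8 against 215.1 ± 41.2 CPM, again without passing (log2 fold change 0.94 ± 0.25, edgeR, adjusted p near 1). There it did not overlap, nor did Sfrp2, as was so for 9.84% of genes with a count. Sfrp2 was higher in cluster 3 of all 3 strains, at 368 ± 82.5 against 165.1 ± 43.4 CPM (log2 fold change 1.31 ± 0.43, edgeR, adjusted p = 0.426).

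The rest of the Wnt pathway was read from 6 lists of genes. Of 19 Wnt ligands, 4 averaged at least 10 CPM in fibroblasts (Wnt5a, Wnt5b, Wnt9a and Wnt11) and 2 in mural cells (Wnt5b and Wnt16), named after their values were seen. Wnt9a stood at 31.3 ± 13.7 CPM in fibroblasts against 3.56 ± 6.01 in mural cells, Wnt5a at 30.6 ± 22.6 against 6.41 ± 9.74, and Wnt5b at 10.3 ± 6.92 against 47.6 ± 27.5. None of the 7 ligands tested was called between the classes. The lists of R-spondins and their receptors (6 of 9 tested), Wnt secretion genes (2 of 2) and Wnt response genes and mediators (10 of 12) had no call.
Of 16 receptors and co-receptors tested out of 18, 2 were higher and 1 was lower in fibroblasts. Fzd9, a Frizzled receptor, was at 4.397 ± 2.49 CPM in fibroblasts against 0.0609 ± 0.0731 in mural cells (log2 fold change 6.07 ± 1.42, edgeR, adjusted p = 0.0331). Its mural sums were 0 to 0.146 CPM. Fzd9 thus passed the low-count filter through fibroblasts alone, and the size of its fold is set near the floor. Lrp4, a receptor that binds sclerostin, was at 18.4 ± 4.15 against 1.74 ± 1.10 CPM (log2 fold change 3.38 ± 0.84, edgeR, adjusted p = 0.0419). Fzd4, the Frizzled receptor that also binds Norrin, was at 19.7 ± 12.7 against 95.03 ± 37.2 CPM (log2 fold change −2.29 ± 0.55, edgeR, adjusted p = 0.0357). Each kept its direction in all 4 strains. The calls of Fzd9 and Lrp4 were lost without any 1 of the strains, with no low-count filter and with the strain as a block (edgeR, adjusted p = 0.0629 and 0.107). That of Fzd4 was lost without Acta2GFP, C57BL6 or PdgfrbGFP and with no low-count filter, and those of Fzd4 and Lrp4 with counts of at most 5 reads set to 0. For Fzd4 this came with adjusted p up to 0.181 over all alternatives.
Of the other Wnt inhibitors Trabd2b, a membrane protease that cleaves Wnt ligands, was higher in mural cells, at 73.5 ± 20.1 against 4.18 ± 3.23 CPM (log2 fold change −4.16 ± 0.72, edgeR, adjusted p = 0.00847). It was the only call among the 3 of 8 genes tested, and was lost without PdgfrbGFP (adjusted p = 0.0594). No gene of the 6 lists was called in edgeR in the 7 other comparisons.

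The genes most alike in pattern were sought over the 27 sums of strain and cluster among 10326 genes with a mean of at least 10 CPM, by Pearson correlation of log2(CPM + 1). These sums share clusters and plates, so the values are descriptions. Nearest to Wif1 were Uts2r (0.89), Scx (0.89) and Cyp26a1 (0.89), and among the nearest to Sost were Gm830 (0.88) and Pdlim4 (0.88). Sfrp1 was closest to Myoc (0.96), Myocos (0.94) and Bmper (0.93), and Frzb to Adcy7 (0.93), Elmo1 (0.91) and Papss2 (0.90). Dkk3 had looser likenesses, with Scara3 (0.79), 1500015O10Rik (0.78) and Syn3 (0.76). After the overlapping Gm26771 (0.99), Sfrp2 was nearest to Sema3b (0.82) and Lgals1 (0.77), and the sparse Sfrp4 to Gtf3c5 (0.85), Nsmf (0.72) and Zbtb17 (0.70). Among the members themselves the closest pairs were Wif1 with Dkk3 (0.65), Sfrp1 with Frzb (0.61) and Sfrp1 with Sfrp2 (0.60), and Sfrp1 with Sost gave −0.37.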

How the data were processed

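Single heart cells were sequenced as 50-base single reads with Smart-seq2. Following the methods of the study, adapters were trimmed, reads were mapped to GRCm38 with TopHat2 and counted per gene with featureCounts by the authors. The annotation release and strand setting are not given in the sources used here. Low-quality cells, likely doublets and cells with endothelial or immune signatures had been filtered by the authors, and no further doublet caller was run. The deposited table holds raw read counts for each gene in each cell. Spike-in ERCC features (92 features, 1.82% of counts) entered neither library sizes nor tests. All 1279 cells were used, of which 2 held under 50000 counts once ERCC counts were left out, and no columns were identical. Reads are not independent molecules, so limits for a count of 0 (3 counts of the total) cover counting error only. Shares of cells pool strains and plates, whose spread they do not show.

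For each comparison, counts were added up by strain and side (at least 3 cells). CPM and RPKM were computed from those sums, with the GENCODE M21 exon length for RPKM. Sums were compared with the edgeR 4.0.16 quasi-likelihood F test (R 4.3.3) after TMM scaling, on genes kept by filterByExpr (minimum count 10). Benjamini-Hochberg adjustment ran over all genes tested, with a threshold of 0.05. Alternatives were no filter, DESeq2 1.42.0, its size factors in edgeR, the strain as a block, leaving out each strain, and setting counts of 5 or fewer reads in a cell to 0. The scripts were tested on simulated data.

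Strains pair the sides of a comparison because both carry the same strain label and the same kind of sort. In the reporter strains both sides also share a plate. In C57BL6 all mural cells shared a plate, while many fibroblasts came from other C57BL6 plates, so fibroblasts and mural cells were paired by plate only in part. Deviations of a strain's sides from their group means correlated at 0.0461 to 0.237 over genes.

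The members and gene lists were chosen with earlier results of these data known. Named genes were the members, at most 3 called genes per pathway list and comparison by fold change, and the 3 genes most alike each member, of which 1 is not reported here. Sequences came from RefSeq windows on GRCm38.p6.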

Additional observations from a re-analysis of the deposited data

Results flagged for a closer look

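Values of 4 strains were screened for a strain apart from the rest, by the gap to its nearest neighbour as a share of the range (Dixon's 95% level). Of 24 groups, 4 were marked, and chance marks about 1 in 20 groups. Sfrp2 over all fibroblasts was lowest in Cspg4dsRED, at 0.853 CPM against 227.03 to 258.5 CPM. Sost over all mural cells was highest in Cspg4dsRED, at 161.9 CPM against 0 to 24.1 CPM. Cspg4dsRED held 33 of the 39 cluster 6 cells, C57BL6 and Acta2GFP 3 each and PdgfrbGFP 0. In cluster 8, Acta2GFP was highest for Dkk3, at 322 CPM against 50.3 to 69.1 CPM, and for Sfrp4, at 83.6 CPM against 0 to 11.5 CPM. The difference of Sfrp2 between fibroblasts and mural cells went the opposite way in Cspg4dsRED, with a log2 ratio of −6.01 (CPM + 1) against 2.97, 5.12 and 4.58 in C57BL6, PdgfrbGFP and Acta2GFP. That difference between strains was not tested, since each strain gives 1 value.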

How the results depend on the processing

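Members called numbered 3 for fibroblasts against mural cells (4 in DESeq2, 2 to 3 without a strain, 1 with low reads set to 0), 2 for cluster 1 leaving Wif1 aside (1 to 2 without a strain, 1 with no filter and with low reads set to 0) and 0 elsewhere. For cluster 6, leaving Sost aside, the number was 1 with no filter, 2 in DESeq2, 1 with the strain block (Dkk3) and 0 to 1 without a strain. It was 1 in DESeq2 for clusters 2 and 5, 1 with no filter for clusters 3 and 5 and 1 with the strain block for cluster 3. The block changed no other member call.

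The share of all genes called in fibroblasts against mural cells went from 5.93% to 12.7% in DESeq2, 2.58% with no filter and 2.66 to 3.91% without a strain. For cluster 1 the 1.33% became 0.530% with no filter and 5.22% in DESeq2. It became 0.742% with the block, 0.592% with low reads set to 0 and 0.201 to 0.748% without a strain. For cluster 6 the 0.033% became 0.418% with no filter, 2.81% in DESeq2, 0.883% with the block, 0.00864% with low reads set to 0 and 0 to 0.495% without a strain. For cluster 8 against cluster 7 the 0.194% became 0.855%, 3.20%, 0.691% and 0% in the same order, 0.379% with DESeq2 size factors (12 higher and 33 lower against 10 and 13) and 0 to 0.987% without a strain. From 0%, no filter gave 0.00736%, 0.0705%, 0.0184% and 0.119% and DESeq2 1.22%, 2.61%, 1.29% and 0.789% in clusters 2, 3, 4 and 5. The block gave 0.236% in cluster 3, low reads set to 0 gave 0.0150% in cluster 4, and leaving out a strain gave 0 to 0.00657% there. Leaving out a strain leaves fewer samples, and cluster 5, with 2 strains, was not run without one. Other causes were not tested. With DESeq2 size factors the median log2 fold change of all genes moved from −0.32 to −0.17 for cluster 6, from 0.18 to 0.04 for cluster 8 and from −0.13 to 0.04 for cluster 3.

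The log2 fold changes that reversed were not called in edgeR. Between clusters 8 and 7 without a strain, Frzb ran from −0.15 to 0.014 and Sfrp1 from −1.24 to 1.38. There Sfrp1 was −0.39 with the block, and Sfrp2 −0.059 in DESeq2 and −0.061 with its size factors. In cluster 2, Sfrp2 ran from −0.41 to 0.16 without a strain and was 0.043 with the block. Of 80 pairs of member and cluster, 22 averaged at least 100 CPM under the main setting and 21 to 23 under the alternatives. Pairs with a count in at least 50% of cells fell from 28 to 14 after thinning to 50000 counts and to 11 with more than 5 reads. The smallest sums were Cspg4dsRED cluster 1 (810367 counts), C57BL6 cluster 6 (1020801) and Acta2GFP cluster 6 (1852523), with 3 cells each.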
